A study of Mus musculus with 24 samples.

Results

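The genes described here are 7 transcription factors of the lens epithelium and the early lens: Pax6, Foxe3, Six3, Meis1, Meis2, Tfap2a and Sox2. They were taken by symbol from an mRNA table of 30705 genes, and all 7 passed the filter that left 14405 genes for testing. The libraries came from ocular lens of C57BL/6 mice with no allele or treatment named. Embryos were taken on day 15 (E15) or day 18 (E18), and pups on the day of birth (P0) or on day 3, 6 or 9 after it (P3, P6 or P9). Each of the 6 stages had 2 pools, A and B, of lenses from 8 to 9 pups each, so the 2 pools of a stage are separate animals and every p-value measures the spread between pools. Levels are the authors' deposited values, read as RPKM (reads per kilobase of transcript and per 1e6 reads), and are given as mean ± SD with n = 2 pools.

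The vertebrate lens forms from head surface ectoderm that thickens, folds into a vesicle and separates into an anterior epithelium and posterior fiber cells. Pax6 and Six3, a paired-box factor and a sine oculis homeodomain factor, are needed to specify the lens ectoderm, and Meis1 and Meis2, homeodomain factors of the TALE class, bind a lens enhancer of Pax6. Sox2, an HMG-box factor, binds crystallin enhancers together with Pax6 in chick, while Tfap2a (AP-2 alpha) and Foxe3, a forkhead factor, are needed for the lens vesicle to separate from the surface, and Foxe3 also keeps the epithelium proliferating. Pax6, Six3, Meis1, Meis2, Sox2 and Tfap2a are also transcribed in the retina, so each was read against Rax, a homeobox gene that marks retinal progenitors and is not a gene of the lens lineage.

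The estimated depth of the 12 mRNA libraries was 20.2 (P9 pool B) to 43.5 (E18 pool B), in 1e6 reads, so that 1 RPKM of a 2 kb transcript stood for 40.3 to 87.1 reads. The 16 crystallin genes took 27.5% to 61.3% of summed RPKM, and this share was larger at every postnatal stage than at E15 or E18. The pools of E15 stood apart. Over all tested genes their median absolute log2 difference was 0.35, against 0.11 to 0.15 at the other stages. The summed level of 18 neural retina markers was 1289 RPKM in E15 pool A, 346.4 in E15 pool B, 893.8 and 923.7 in the E18 pools and 69.6 to 200.1 in the postnatal pools, and all 18 were higher in E15 pool A than in pool B. None of the 18 was at 0 in all libraries. Photoreceptor markers ran the other way: 8 of them summed to 2.07 and 2.12 RPKM at E15, 7.94 and 8.46 at E18, 2.30 to 63.3 from P0 to P6 and 159.8 and 358.0 at P9. Summed levels of 14 lens epithelium markers were 1888 and 2411 RPKM at E15, 3681 to 3813 at E18 and 7918 to 14138 after birth, of which Cryab alone, which is also a crystallin, gave 45.9% to 80.6%. Those of 11 lens fiber markers were 27596 and 41750, 35774 to 36288 and 59572 to 80947. RNA of neural retina markers was thus present in libraries labelled as lens, most of it in E15 pool A and both E18 pools, and photoreceptor RNA was present mainly at P9, where Rax was low. The part of neural retina RNA in the results below was not tested beyond the values given against Rax. Rax marks retinal progenitors, so those values do not bear on photoreceptor RNA, whose part was not tested.

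In the GRCm38 annotation Foxe3 (chr4:114924443-114926067, minus strand) and Sox2 (chr3:34649995-34652461, plus strand) each have 1 exon. The others are multi-exon genes: Pax6 (chr2:105668896-105698410, plus strand), Six3 (chr17:85613608-85626191, plus strand), Meis1 (chr11:18880428-19019651, minus strand), Meis2 (chr2:115861264-116067537, minus strand) and Tfap2a (chr13:40713802-40738238, minus strand). Sox2 lies whole inside the long noncoding gene Sox2ot on the same strand, over 2467 bases. Six3 shares 4789 bases with Six3os1 and Pax6 shares 1435 bases with Pax6os1, both on the opposite strand. Strand-specific counting is not stated in the sources used here, so reads within these shared stretches cannot be assigned with certainty.

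The promoters of Pax6, Six3 and Foxe3 are shown because the first 2 genes had like courses over the stages, with their highest means at E18, where Foxe3 was lowest. Each is the 250 bases before a transcription start in RefSeq (GRCm38.p6), 5′ to 3′ on the gene's strand, with motif matches in capitals. The window of Pax6 lies at chr2:105668646-105668895 within Pax6os1, that of Six3 at chr17:85620584-85620833 and that of Foxe3 at chr4:114926068-114926317.
Pax6: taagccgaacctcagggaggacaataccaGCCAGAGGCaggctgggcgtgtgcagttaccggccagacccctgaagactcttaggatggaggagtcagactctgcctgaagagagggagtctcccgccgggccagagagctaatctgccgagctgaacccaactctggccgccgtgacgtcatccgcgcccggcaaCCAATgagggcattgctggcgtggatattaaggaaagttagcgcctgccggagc
Six3: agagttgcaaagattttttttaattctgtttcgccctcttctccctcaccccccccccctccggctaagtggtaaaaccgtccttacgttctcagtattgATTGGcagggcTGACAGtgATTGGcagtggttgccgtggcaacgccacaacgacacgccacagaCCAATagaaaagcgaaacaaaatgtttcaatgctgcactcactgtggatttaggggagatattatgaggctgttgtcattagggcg
Foxe3: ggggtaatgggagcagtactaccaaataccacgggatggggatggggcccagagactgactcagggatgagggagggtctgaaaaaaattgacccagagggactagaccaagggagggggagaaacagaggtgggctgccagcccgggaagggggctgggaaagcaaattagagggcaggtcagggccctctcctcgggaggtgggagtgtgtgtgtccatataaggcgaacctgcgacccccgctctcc
The letters of 6 motifs were searched on both strands in 9 promoters of the 7 genes and in all 32851 promoters of the table. The Meis core TGACAG was in 3 of the 9, in Six3 at bases -139 to -134 from the start, in Sox2 and in a second Pax6 promoter, and in 15.86% of all promoters. A CCAAT box was in 5 of the 9 and 33.85% of all, with 3 matches in Six3, and an AP-2 palindrome (GCCNNNGGC) was in 1 of the 9, Pax6 at -221 to -213, and 13.73% of all. The Sox core CATTGT was in 1 (Meis1; 10.69% of all), the TATA box TATAAA in 1 (Meis2; 12.37% of all) and the homeodomain core TAATTA in 1 (Tfap2a; 4.84% of all). Matches of the Meis core and the CCAAT box in Six3 lie side by side without sharing a base. The Foxe3 window held none of the 6.

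Pax6 was the most abundant of the 7, with the 228th highest mean level in the table. Its RPKM was 223.5 and 127.9 in the 2 pools of E15, 251.8 and 264.0 at E18, 147.2 and 163.8 at P0, 148.2 and 155.9 at P3, 100.8 and 86.3 at P6 and 96.6 and 90.6 at P9. The E18 pools were above all others, E15 pool B lay below the P0 and P3 pools while E15 pool A lay above them, and the P6 and P9 pools were the lowest and overlapped each other. From 258 ± 8.6 RPKM at E18 the level went to 156 ± 11.7 at P0 and 93.6 ± 4.3 at P9.

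Six3 followed a like order at a lower level. It stood at 33.9 and 23.2 RPKM in the E15 pools, 34.2 and 38.2 at E18, 19.0 and 16.3 at P0, 20.6 and 21.5 at P3, 16.8 and 14.2 at P6 and 15.5 and 15.2 at P9. The 4 embryonic pools were above all 8 postnatal pools, and the P6 pools overlapped those of P0 and of P9.

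Meis1 had the widest range of the 7, 6.03-fold from its lowest to its highest library. Its levels were 36.0 and 14.1 RPKM at E15, 32.9 and 33.7 at E18, 12.2 in both pools of P0, 13.2 and 11.9 at P3, 8.67 and 5.98 at P6 and 6.91 and 6.77 at P9. E15 pool A and the E18 pools were more than 30 RPKM, every other pool was below 15, and E15 pool B was just above the highest postnatal pool.

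Sox2 had its highest value in E15 pool A. It was at 31.1 and 9.95 RPKM in the E15 pools, 20.6 and 17.7 at E18, 9.43 and 12.4 at P0, 8.10 and 8.64 at P3, 10.2 and 10.7 at P6 and 10.03 and 9.66 at P9. E15 pool B lay within the range of the postnatal pools, and the E18 pools lay above it.

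Foxe3 moved opposite to Pax6 and Six3 from E15 to E18 and from E18 to P0. Like theirs, its mean was lower at P9 than at E15. Its RPKM was 47.4 and 91.0 in the E15 pools, 18.5 and 16.7 at E18, 39.0 and 24.8 at P0, 42.0 and 36.3 at P3, 41.4 and 41.1 at P6 and 36.5 and 33.8 at P9. The E18 pools were the lowest of the 12 and E15 pool B the highest, and, in the order of their means (P6, P3, P9, P0), neighbouring stages overlapped.

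Tfap2a had its lowest means before birth and its highest at P6. Its values were 6.58 and 10.4 RPKM at E15, 7.31 and 9.49 at E18, 9.70 and 11.7 at P0, 13.2 and 14.1 at P3, 16.1 and 17.9 at P6 and 14.2 and 9.40 at P9. The P6 pools lay above all others, whereas the pools of P9 spanned those of P0 and P3.

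Meis2 varied least, 2.19-fold over the 12 libraries. It had 8.25 and 5.89 RPKM at E15, 11.3 and 10.6 at E18, 8.44 and 7.21 at P0, 10.1 and 12.9 at P3, 11.2 and 10.4 at P6 and 8.15 and 10.3 at P9. Only the P6 and P9 means were neighbours in order of level without overlapping pools.

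**Figure D1:**
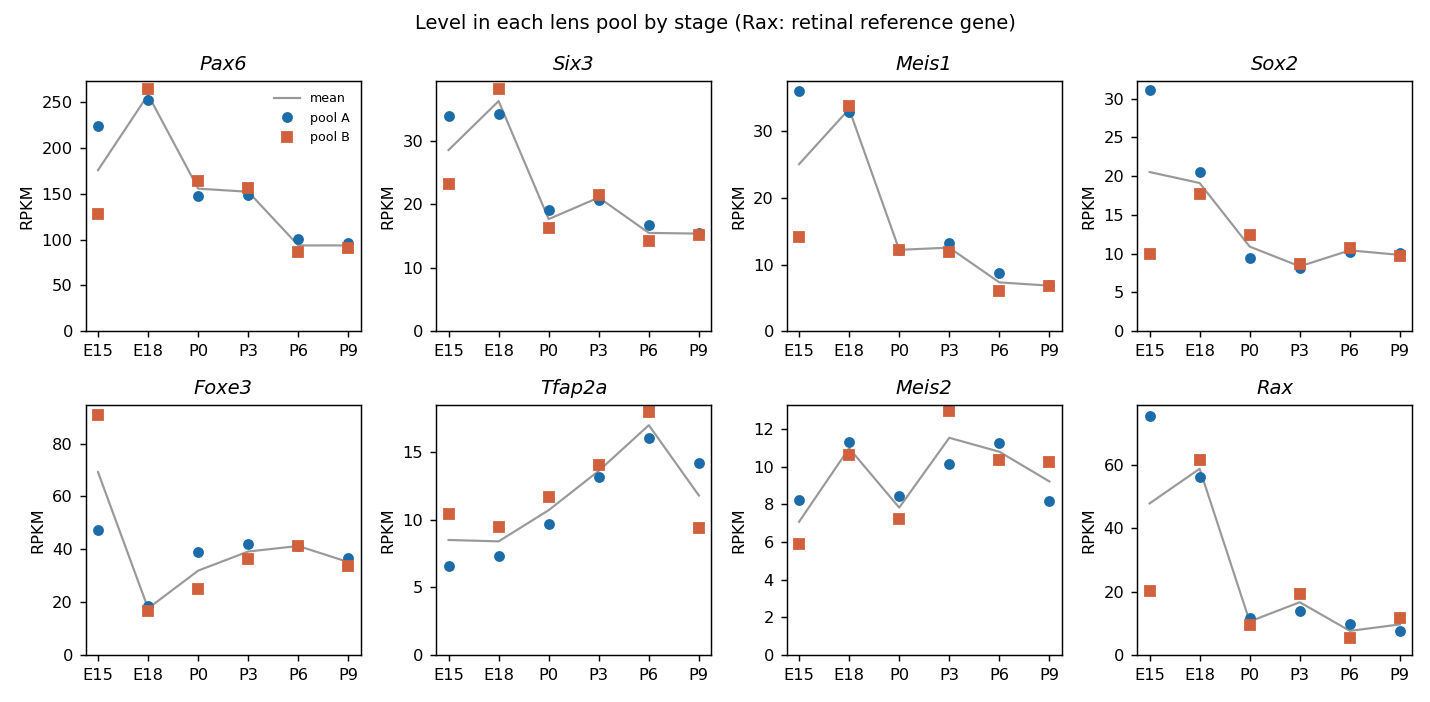
RPKM (y axes, each from 0) of the 7 genes and Rax at the 6 stages (x axes); circles are pools A, squares pools B and the grey line their mean. Pax6, Six3, Meis1 and Sox2 were higher in E15 pool A and both E18 pools than after birth, as Rax was, while Foxe3 was lowest at E18 and Tfap2a highest at P6.

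Changes were tested with limma on log2(RPKM + 1), which understates the change of low genes, in a single fit over the 12 libraries, with Benjamini-Hochberg adjustment over 14405 genes and a threshold of 0.05. Over all stages 6 of the 7 were called, where 74.2% of all genes were, so the count is near the background. Sox2 was not called, with an adjusted p of 0.080.

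Between E15 and P9, Pax6, Foxe3, Six3 and Meis1 fell, as did 55.4% of all tested genes. None of the 7 rose by limma, and 0 were higher at P9 at an unadjusted p below 0.05, where 8.65% of genes rose. Pax6 fell by 0.85 ± 0.20 on the log2 scale (SE; adjusted p = 0.0045) and Six3 by 0.83 ± 0.17 (adjusted p = 0.0016). Meis1 fell by 1.59 ± 0.32, from 25.1 ± 15.5 to 6.84 ± 0.10 RPKM (adjusted p = 0.0017), and Foxe3 by 0.89 ± 0.27, from 69.2 ± 30.9 to 35.1 ± 2.0 RPKM (adjusted p = 0.015). Meis2 differed by 0.35 (adjusted p = 0.11), Tfap2a by 0.43 (adjusted p = 0.12) and Sox2 by -0.79 (adjusted p = 0.082), and these 3 did not pass. The median change was -0.83 over the 7 and -0.54 over all genes.

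Single E15 pools decided several of these values. Against E15 pool B alone the change of Sox2 was -0.014, and against pool A alone -1.57 (adjusted p = 2.5e-05). That of Foxe3 was -1.35 against pool B alone and -0.42 against pool A alone (adjusted p = 0.095), and it also lost its call without P9 pool B (adjusted p = 0.066). Pax6 changed by -0.45 against pool B alone and -1.25 against pool A alone, and Meis1 by -0.94 and -2.24. Both passed in each fit, as did Six3. Tfap2a passed as higher at P9 against pool A alone (0.73; adjusted p = 0.015) and without P9 pool B (0.71; adjusted p = 0.038), and Meis2 against pool B alone (0.56; adjusted p = 0.023).

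E18, whose pools lay close together, gave a second embryonic reference. Between E18 and P9, Pax6, Six3 and Meis1 fell, where 63.2% of genes did, and Foxe3 rose, where 7.49% of genes did. Meis1 fell by 2.13 ± 0.32 (adjusted p = 3.6e-04), Pax6 by 1.45 ± 0.20 (adjusted p = 2.5e-04) and Six3 by 1.18 ± 0.17 (adjusted p = 2.6e-04). Foxe3 rose by 0.96 ± 0.27, from 17.6 ± 1.3 to 35.1 ± 2.0 RPKM (adjusted p = 0.0090), and its call was lost without E18 pool B (adjusted p = 0.053). Sox2 differed by -0.89 (adjusted p = 0.051), Meis2 by -0.24 and Tfap2a by 0.43, and none of these passed. Tfap2a passed without P9 pool B (0.70; adjusted p = 0.035) and stood at 0.16 without P9 pool A. With both E15 libraries left out of the fit Sox2 passed too, at the same -0.89 (adjusted p = 2.0e-04). In that fit 4 of the 7 fell, where 68.1% of all genes did, and 1 rose, where 8.68% did.

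By consecutive stages 5 of the 35 changes were called, 4 of them across birth. From E18 to P0, Six3 fell by 1.00 ± 0.17 (adjusted p = 0.0018), Meis1 by 1.38 ± 0.32 (adjusted p = 0.0064) and Pax6 by 0.73 ± 0.20 (adjusted p = 0.014), where 45.1% of genes fell. Foxe3 rose by 0.79 ± 0.27 (adjusted p = 0.031), where 7.72% of genes rose, but not without E18 pool A, E18 pool B or P0 pool A (adjusted p = 0.077, 0.13 and 0.23), and the call of Pax6 was lost without the same libraries (adjusted p = 0.0505, 0.074 and 0.079). Between E15 and E18 Foxe3 fell by 1.84 ± 0.27 (adjusted p = 0.0036), where 3.67% of genes fell, and it was the only one of the 7 called (5.48% of genes rose). The change of Foxe3 was -2.31 without E15 pool A and -1.38 without pool B, its extremes over all alternative fits. For others of the 7 that step turned on the E15 pools. Without E15 pool A, 5 of the 7 rose, where 25.9% of genes did: Meis1 by 1.19, Pax6 by 1.01, Sox2 by 0.87, Meis2 by 0.80 and Six3 by 0.62 (adjusted p = 0.0011, 2.8e-04, 0.0033, 0.0078 and 0.0070). Without E15 pool B, Sox2 fell by 0.68 (adjusted p = 0.032). Meis2 passed as higher with quantile normalization (0.53; adjusted p = 0.047). In the later steps none was called by limma. The smallest adjusted p was 0.34 from P0 to P3, 0.12 from P3 to P6 and 0.92 from P6 to P9, the unadjusted p was below 0.05 for 1, 3 and 1 of the 7, and 0.521%, 1.08% and 0.111% of all genes were called. Without the 2 E15 libraries, 5 of the 7 fell from E18 to P0, where 54.2% of genes did, with Sox2 (-0.76; adjusted p = 8.4e-04) and Meis2 (-0.44; adjusted p = 0.022) among them. In that fit Pax6 fell by 0.70, Meis1 by 0.72 and Six3 by 0.42 from P3 to P6 (adjusted p = 0.0022, 0.013 and 0.034), where 14% of genes fell.

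RPKM values depend on the sum of all reads in a library, of which crystallins took a growing share. Median-ratio rescaling sets libraries to a common median ratio against the genes' geometric means. It moved the median change of all genes from -0.54 to -0.013 between E15 and P9 and from -0.61 to -0.014 between E18 and P9. On that scale 19.6% of genes fell and 21.3% rose between E15 and P9, and 20.5% and 22.2% between E18 and P9. Pax6 (-0.18), Six3 (-0.19) and Foxe3 (-0.23) were not called between E15 and P9, and Meis1 was (-0.97; adjusted p = 0.012). Meis2 and Tfap2a were called as higher at P9 by 0.94 and 1.03 (adjusted p = 4.6e-04 and 0.012). Between E18 and P9, Pax6 (-0.71), Six3 (-0.46) and Meis1 (-1.43) remained called as lower and Foxe3 as higher (1.67), Meis2 turned from -0.24 to 0.44 (adjusted p = 0.027), Tfap2a passed at 1.10 (adjusted p = 0.0083) and Sox2 did not pass (-0.19). From E18 to P0 the change of Pax6 was -0.24 and lost its call (adjusted p = 0.25). Meis1 alone of the 7 was called in the same direction against both E15 and E18 on both scales.

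**Figure D2:**
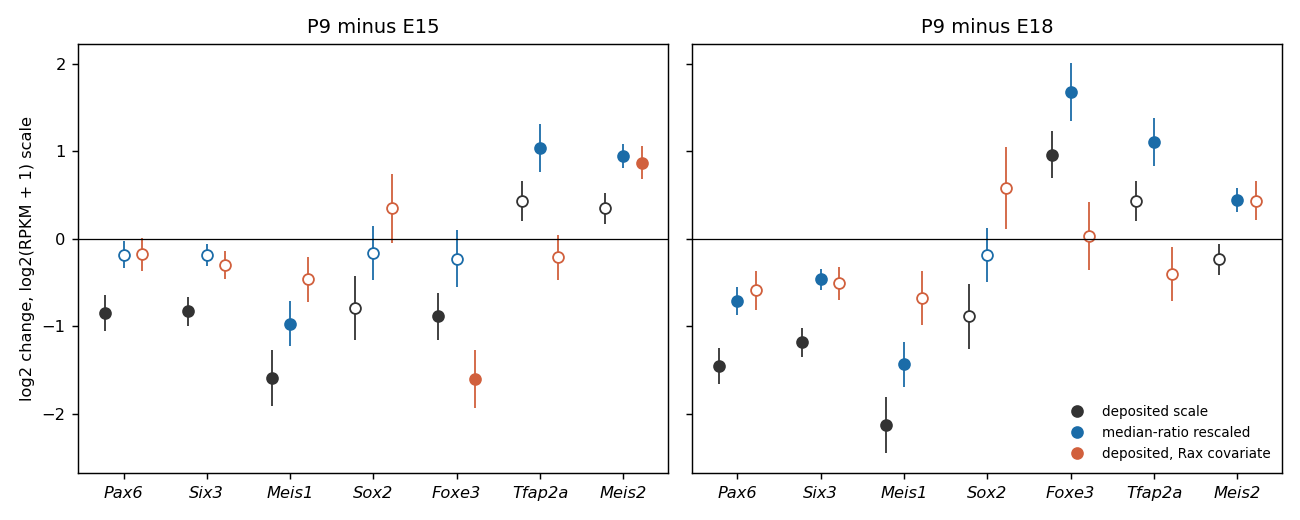
Log2 change on the log2(RPKM + 1) scale (y axis) from E15 to P9 (left) and E18 to P9 (right) for each of the 7 genes, with bars of 1 SE; black is the deposited scale, blue the median-ratio rescaled values and orange the deposited scale with Rax as a covariate, and filled points passed an adjusted p of 0.05. Meis2 and Tfap2a were higher at P9 on the rescaled values, and no gene passed against E18 with the Rax covariate.

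Rax, the retinal reference, was at 75.6 and 20.2 RPKM in the E15 pools, 56.2 and 61.5 at E18, 11.7 and 9.42 at P0, 14.0 and 19.3 at P3, 9.77 and 5.42 at P6 and 7.48 and 11.8 at P9. E15 pool A and the E18 pools, its 3 highest libraries, were also the 3 highest of Pax6, Six3, Meis1 and Sox2. The E18 pools held the 2 lowest values of Foxe3, while E15 pool A, the highest in Rax, held its second highest. The lowest and second lowest values of Tfap2a were in E15 pool A and E18 pool A. Rax fell by 2.38 ± 0.48 from E18 to P0 (adjusted p = 0.0038). In bulk tissue a smaller share of retinal cells and less RNA per cell cannot be told apart.

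The E15 pools differ in Rax and share their stage. The log2 ratio of pool A to pool B was 1.90 for Rax. It was 1.65 for Sox2, 1.36 for Meis1, 0.81 for Pax6, 0.55 for Six3 and 0.48 for Meis2, against -0.67 for Tfap2a and -0.94 for Foxe3. So 5 of the 7 were higher in the pool with more Rax and 2 were lower, and 71.8% of all tested genes were higher in that pool. At the other 5 stages no such ratio of the 7 exceeded that of E15 in size, with Meis2 between -0.35 and 0.23, and over all 6 stages the sign of the ratio matched that of Rax in 5 for Six3 and Meis2, 4 for Pax6, 3 for Meis1 and 2 for Sox2, Foxe3 and Tfap2a.

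**Figure D3:**
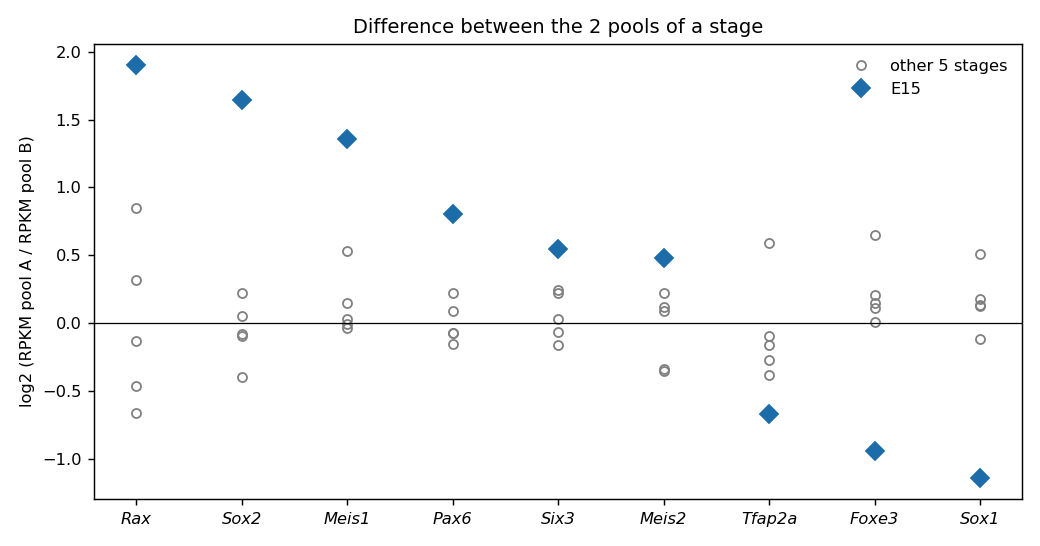
Log2 ratio of RPKM in pool A to pool B (y axis) for the 7 genes, the retinal gene Rax, and Sox1; filled diamonds are E15 and open circles the other 5 stages. At E15 Rax and 5 of the 7 lay above 0, with Sox2 (1.65) the highest of the 7, and Tfap2a, Foxe3 and Sox1 lay below 0.

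Level per unit of Rax shows how closely each gene kept to it. Rax itself spanned 13.9-fold over the 12 libraries. Meis1 per Rax spanned 2.72-fold, from 0.477 in E15 pool A to 1.30 in P0 pool B, and its values in E15 pool A and the E18 pools (0.477 to 0.586) reached the low end of the postnatal range (0.573 to 1.30). Pax6 per Rax spanned 5.88-fold, with 2.96 to 4.48 in those 3 libraries, 6.33 in E15 pool B and 7.67 to 17.4 after birth. Six3 per Rax spanned 5.83-fold, with 0.448 to 0.620, then 1.15, then 1.11 to 2.61. Sox2 per Rax spanned 6.88-fold, and the ranges of Meis2 (17.5-fold), Foxe3 (27.9-fold) and Tfap2a (38.0-fold) were wider than that of Rax itself. Meis1 thus stayed closest to Rax. The other 6 had higher levels per Rax in every postnatal pool than in those 3 libraries, with Sox2 at 0.287 to 0.412 there and 0.448 to 1.97 after birth. Those 3 libraries are the highest in Rax, the divisor, so a gene of constant level would show the same difference.

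With log2(Rax + 1) as a covariate beside stage, 3 of the 7 were called over all stages, where 36.2% of all genes were. They were Foxe3, Meis2 and Pax6 (adjusted p = 0.0020, 0.0045 and 0.0077). Between E18 and P9 0 were called, where 13% of genes were, and 2 (Pax6 and Six3) had an unadjusted p below 0.05. Fewer genes were thus called in this fit over the whole table too. Between E15 and P9 Foxe3 fell by 1.60 (adjusted p = 0.0043; 27.3% of genes fell), Meis2 rose by 0.87 (adjusted p = 0.0061; 8.99% rose), and Pax6 (-0.18), Six3 (-0.30) and Meis1 (-0.46) did not pass. Between E18 and P9 the changes of Meis1 (-0.67), Pax6 (-0.59) and Six3 (-0.51) did not pass, and that of Foxe3 was 0.033. From E18 to P0, Six3 (-0.36; adjusted p = 0.39) and Meis1 (-0.0024; adjusted p = 0.997) lost their calls, as did Pax6 and Foxe3. From E15 to E18 Foxe3 passed as lower (-1.63, adjusted p = 0.0014) and Meis2 as higher (0.43, adjusted p = 0.045). The slope on Rax rests on differences within stages, of which E15 gave 74.1% of the sum of squares, so these values depend mostly on the E15 pools.

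Ratios between genes within a library do not depend on its scaling. Six3 per Pax6 was the steadiest, 0.0993 to 0.181 over the 12 libraries, a 1.82-fold range. Foxe3 per Pax6 ranged 11.3-fold, with 0.212 and 0.712 in the E15 pools and 0.0684 ± 0.0074 at E18, then 0.208 ± 0.080 at P0 and 0.258 ± 0.035 at P3, and later 0.443 ± 0.046 at P6 and 0.376 ± 0.0038 at P9. The E18 pools were the lowest and the P6 and P9 pools lay above those of P0 and P3.

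Meis1 per Meis2, a ratio of paralogs, was 3.38 ± 1.40 at E15 and 3.04 ± 0.19 at E18, then 1.57 ± 0.18 at P0 and 1.11 ± 0.27 at P3, and later 0.675 ± 0.138 at P6 and 0.753 ± 0.133 at P9. Meis1 had the higher RPKM in all 4 embryonic pools and Meis2 in all 4 pools of P6 and P9. Tfap2a per Pax6 was 0.0325 ± 0.0049 at E18, 0.0895 ± 0.0010 at P3 and 0.184 ± 0.034 at P6, a 7.16-fold range over the libraries. Sox2 per Pax6 ranged 2.55-fold. No test was run on the ratios.

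**Figure D4:**
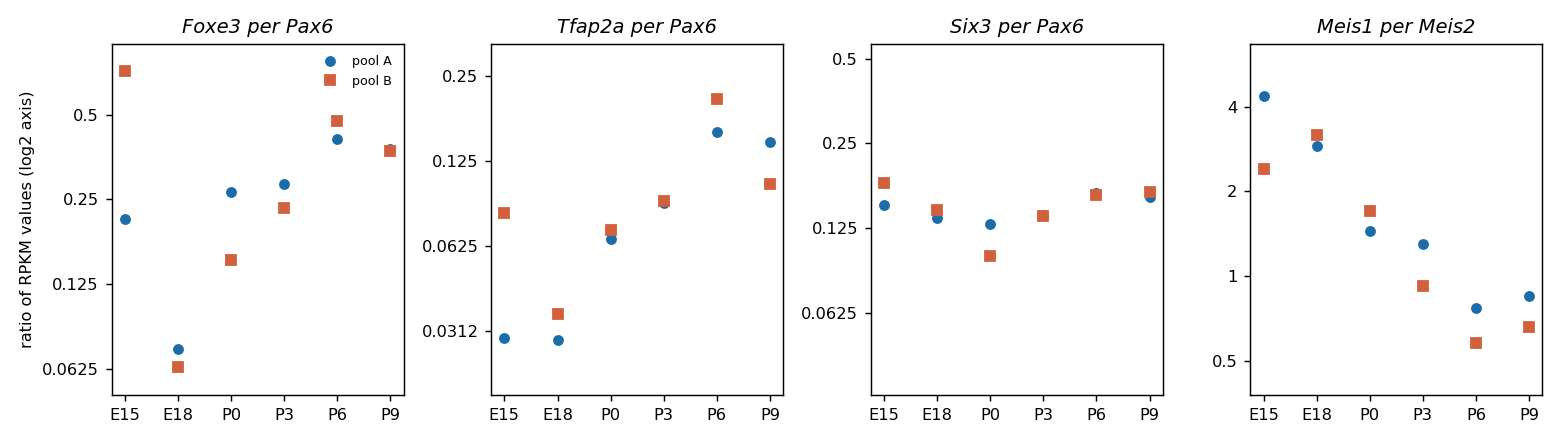
Ratios of RPKM values within each library (y axes, log2 spaced) at the 6 stages (x axes); circles are pools A and squares pools B. Six3 per Pax6 stayed within 0.0993 to 0.181, Foxe3 per Pax6 was lowest at E18, and Meis1 per Meis2 was above 2 in every embryonic pool and below 1 at P6 and P9.

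Among 7881 genes with a mean of at least 5 RPKM, those with the profile most like that of each gene were found by the root mean square difference of log2(RPKM + 1) values, each centred on its own mean, over the 12 libraries. For Foxe3 they were Leprel1 (0.30), a collagen prolyl hydroxylase, Pdgfra (0.34), the receptor of PDGF-A that lens epithelial cells carry, and Sulf1 (0.34), an extracellular heparan sulfatase, against a median of 0.70 over all genes compared. Pdgfra stood at 14.8 and 23.9 RPKM in the E15 pools, 10.6 and 9.69 at E18 and 20.1 and 17.7 at P9, and Sulf1 at 17.6 and 24.0, 9.98 and 9.36, and 21.2 and 19.7. Both, like Foxe3, were lowest at E18 and higher in E15 pool B than in pool A. Sox1, a lens fiber factor chosen here after its values were seen, was also lowest at E18 and higher in E15 pool B than in pool A. It stood at 12.5 and 27.6 RPKM at E15, 10.2 and 9.32 at E18 and 34.5 and 31.5 at P9. Unlike Foxe3, Sox1 was higher in both P9 pools than in either E15 pool.

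**Figure D5:**
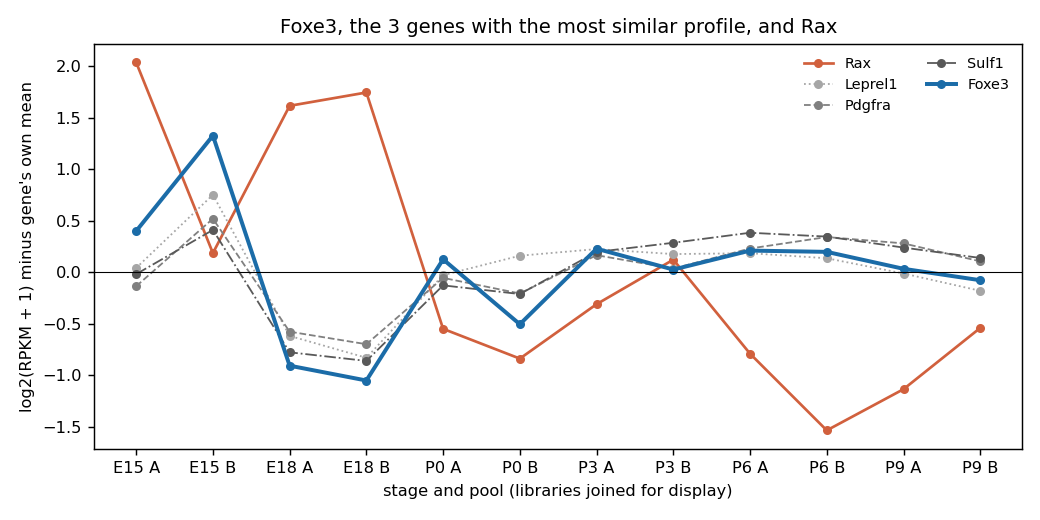
Log2(RPKM + 1) minus each gene's own mean (y axis) in the 12 libraries (x axis, joined for display) for Foxe3, the 3 genes of most similar profile and Rax. Foxe3, Leprel1, Pdgfra and Sulf1 were lowest in both E18 pools and highest in E15 pool B, while Rax was highest in E15 pool A and both E18 pools.

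For the other 6 the median over all genes compared was lower, from 0.34 (Six3) to 0.63 (Meis1). The nearest profiles also had smaller differences. They were AK179207 (0.099), Gpr98 (0.12) and Spred1 (0.12) for Pax6, Safb2 (0.067), Lasp1 (0.077) and AK196542 (0.086) for Six3, and Sh3bgrl (0.13), Marcks (0.15) and 6330403K07Rik (0.15) for Meis1. For Sox2 they were Rexo1 (0.23), Scrn1 (0.23) and Pmm1 (0.24), for Meis2 Acvr1b (0.17), Atp11a (0.17) and AK046873 (0.17), and for Tfap2a A2ld1 (0.19), Ahsa1 (0.21) and Fam134b (0.21). None of the 7 was among the nearest 3 of another. In likeness to Pax6, Six3 ranked 190th (0.22), Meis1 1963rd (0.34), Sox2 3730th (0.41) and Foxe3 7522nd (0.98).

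Of 27 family members and partners of the 7, 21 were tested. Between E15 and P9, 15 of them fell, as did 55.4% of all genes, and the other 6 did not pass, their median being -0.76 against -0.54 over all genes. After median-ratio rescaling 6 fell and 3 rose, where 19.6% of all genes fell and 21.3% rose. Between E18 and P9, 17 fell, as did 63.2% of all genes, and the other 4 did not pass, their median being -1.17 against -0.61. After rescaling 11 fell and 2 rose, where 20.5% of all genes fell and 22.2% rose. Eya2, a coactivator of the Six3 family, fell by 3.62 ± 0.43 (adjusted p = 6.7e-05), from 24.0 and 6.50 RPKM in the E15 pools to 0.116 and 0.104 at P9. Six6, the gene closest in sequence to Six3 and a retinal factor on the marker list, fell by 1.96 ± 0.48 (adjusted p = 0.0050), from 29.8 and 6.985 RPKM to 2.50 and 3.67. Pbx2, a TALE partner of Meis proteins, fell by 1.73 ± 0.14 (adjusted p = 9.7e-06), from 48.7 and 36.5 RPKM to 10.8 and 13.2. All 3 were higher in E15 pool A than in pool B, as Rax was. The 6 others of the 27 were not tested. Of these, 5 were below 1 RPKM in every library, among which Foxe1 was at 0 throughout.

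Of 8 transcripts listed as near the 7 genes, 5 were tested. Only the positions of Sox2ot, Six3os1 and Pax6os1 were compared with those of the 7. Sox2ot rose by 1.05 ± 0.17 between E15 and P9 (adjusted p = 4.8e-04), from 4.55 and 7.06 RPKM to 12.8 and 12.9, while Sox2 within it did not pass. The P9 values of Sox2 (10.03 and 9.66 RPKM) were below E15 pool A (31.1) but close to E15 pool B (9.95). Pax6os1 fell by 0.58 ± 0.21 (adjusted p = 0.036), from 1.85 ± 0.85 to 0.872 ± 0.239 RPKM. Six3os1 fell by 0.57 (adjusted p = 0.027), and at 46.4 ± 16.8 RPKM at E15 and 29.9 ± 1.8 at P9 it stood above Six3 in every library. Dmrta2, whose distance to Foxe3 was not examined, rose by 0.62 ± 0.22 (adjusted p = 0.031). Like Foxe3, it had its lowest levels at E18 (3.43 ± 0.76 RPKM, against 14.1 ± 1.0 at P9). Elp4, whose introns hold Pax6 enhancers, fell by 0.52 (adjusted p = 0.0015). After median-ratio rescaling 2 of the 5 rose between E15 and P9, where 21.3% of all genes did, and the other 3 did not pass.

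Of 14 genes known to act under these factors in the lens, 7 rose, 3 fell and 4 did not pass between E15 and P9 (8 rose and 1 fell after rescaling). Over all genes 8.65% rose and 55.4% fell (21.3% and 19.6% after rescaling). The median of the 14 was 0.63 against -0.54 over all genes, and -0.83 over the 7 factors. Foxe3 belongs to both sets and was among the 3 that fell. Cryab, a small heat shock crystallin, rose by 3.35 ± 0.19 (adjusted p = 1.3e-06), from 1125 ± 367 to 11184 ± 201 RPKM. Dnajb1, a chaperone gene, rose by 1.16 ± 0.18 (adjusted p = 3.1e-04) and Ccnd2, a D-type cyclin, fell by 1.19 ± 0.14 (adjusted p = 6.1e-05). Between E18 and P9, 11 rose and 2 fell (12 and 0 after rescaling), where 7.49% of all genes rose and 63.2% fell (22.2% and 20.5% after rescaling). Of 21 other lens transcription factors, 11 fell, 4 rose and 6 did not pass between E15 and P9 (5 fell and 6 rose after rescaling), and their median was -0.50. The count that fell is near the background of 55.4%. Sox11, a SoxC factor of early lens and of neurons, fell by 3.24 ± 0.37 (adjusted p = 6.1e-05), Mab21l2, a gene of lens and retina, by 1.89 ± 0.43 (adjusted p = 0.0036) and Etv4, an ETS factor that responds to FGF, by 1.81 ± 0.27 (adjusted p = 2.6e-04). Sox11 and Mab21l2 stood at 22.9 and 72.7 RPKM in E15 pool A and 7.17 and 19.5 in pool B.

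Among 13 tested lens epithelium markers 5 rose, 2 fell and 6 did not pass between E15 and P9 (9 rose and 1 fell after rescaling), and their median was 0.25. Over all genes 8.65% rose and 55.4% fell between these stages (21.3% and 19.6% after rescaling). Hmgn3, a nucleosome-binding protein, rose by 2.42 ± 0.19 (adjusted p = 7.9e-06) and Npnt, a basement membrane ligand of integrins, by 1.44 ± 0.16 (adjusted p = 4.9e-05). Of the 18 neural retina markers 14 fell, 1 rose and 3 did not pass (12 fell and 3 rose after rescaling), their median being -1.95. From E18 to P0 all 18 fell, where 45.1% of all genes did, and this is the step in which Pax6, Six3 and Meis1 fell. Pigment epithelium, iris and ciliary body markers summed to 82.5 and 34.4 RPKM in the E15 pools, 188.8 to 225.4 at E18, 140.6 and 173.6 at P0, 111.4 and 133.4 at P3, 34.5 and 30.6 at P6 and 36.8 to 39.3 at P9. They were thus lower at P6 than at P3, the step in which Pax6 fell in the fit without E15. These tissues transcribe Pax6 too, and their part in its levels was not tested.

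The paralog Meis2 is repressed by miR-204 in the medaka lens, and miR-204-5p and miR-211-5p share a seed, in capitals (bases 2 to 8), in these mature sequences (RefSeq, GRCm38.p6; chr19:22750610-22750631 and chr7:64205831-64205852, plus strand).
miR-204-5p: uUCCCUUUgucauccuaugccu
miR-211-5p: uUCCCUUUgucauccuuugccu
They differ by A17U, counted from the 5′ end of miR-204-5p. In the separate small-RNA libraries the authors' scaled signal of miR-204-5p was 75271 and 73121 at E15, 54802 and 73530 at E18, 86980 and 84985 at P0, 86261 and 52750 at P3, 89338 and 83851 at P6 and 85161 and 73401 at P9. The pools of E15, E18, P3 and P9 overlapped. Those of P0 and P6 lay above the E15 and E18 pools but overlapped each other and those of P3 and P9. That of miR-211-5p was 3361 ± 722 at E15 and 4022 ± 221 at E18, then 3074 ± 233 at P0 and 2274 ± 40.7 at P3, and later 1150 ± 198 at P6 and 886 ± 11.7 at P9, and its P3, P6 and P9 pools did not overlap. Over the same stages Meis2 stayed within 5.89 to 12.9 RPKM while Meis1 was lowest at P6 and P9. No test was run between the assays, and the depth of the small-RNA libraries is unknown.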

How the data were processed

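RNA of pooled lenses was made into mRNA (TruSeq RNA v2) and small-RNA libraries, per the labels' protocols. The submitters' processing notes name Bowtie 0.12.8, SAMtools 0.1.18 and GRCm38/mm10, with no role or order. The deposited mRNA values carry no stated unit and were read as RPKM, made by the authors: 70.0% to 76.7% of low values tested per library were whole multiples of a step set by transcript length, within 0.1 read, where chance gives 20%. The deposited miRNA values are a signal scaled by the authors in a way not given in the sources used here.

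Genes of at least 1 RPKM in at least 2 of 12 libraries were tested (14405) as log2(RPKM + 1) with limma 3.58.1 in R 4.3.3: stage as a factor, moderated tests with an intensity trend and 6 residual degrees of freedom, Benjamini-Hochberg adjustment. The procedure was tested on simulated data. Alternatives changed scaling, pseudocount (0.1), filter, block, Rax covariate, trend and libraries. Named were the 7 genes and Rax, the 3 most similar profiles of each gene and, per list, up to 3 called genes of largest change between E15 and P9. Exceptions, chosen after their values were seen, are Sox1, Six3os1 and Elp4. The genes and lists were chosen with earlier results of these data known. Pools of a stage share a letter with other stages by name only: differences between pools A and B correlated at -0.25 to 0.21 between stages. Results of some genes are not reported here. Tables and plots used Python 3.11.15, pandas 2.3.3, numpy 2.4.6 and matplotlib 3.10.9.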

Additional observations from a re-analysis of the deposited data

How the results depend on the processing

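On the deposited scale 6 of the 7 genes were called over all stages, 4 between E15 and P9, 4 between E18 and P9 and 5 in consecutive steps. Over all genes 74.2% were called over all stages, 55.4% fell and 8.65% rose between E15 and P9, and 63.2% and 7.49% between E18 and P9. Leaving out 1 library at a time gave 4 to 7, 4 to 5, 3 to 5 and 3 to 15. The highest count of steps came without E15 pool A (15) or pool B (11) and the lowest without E18 pool A, E18 pool B or P0 pool A (3 each); a stage left with 1 pool is taken to vary like the others. The Rax covariate gave 3, 2, 0 and 2, median-ratio rescaling 6, 3, 6 and 4, and quantile normalization 6, 3, 6 and 6. Calling moved over the whole table too, so these counts are not results about the 7 alone. With the Rax covariate 36.2% of all genes were called over all stages. Leaving out E15 pool A raised the share of all genes that rose from E15 to E18, as given above. No filter on low values gave 5, 4, 4 and 4, and a pseudocount of 0.1 or no intensity trend left all 4 counts as they were. Without both E15 libraries 7 were called over all stages and 5 between E18 and P9, where 68.1% of all genes fell and 8.68% rose. In that fit no value could be given for comparisons with E15 or for all consecutive steps. With the pool letter as a replicate block the counts were 6, 4, 4 and 5, so the block changed none. Among the changes of single genes that were called in either fit, direction turned for Meis2 from E18 to P9 (0.44 after median-ratio rescaling, 0.39 after quantile normalization) and, without a call, from E18 to P0 for Pax6 (0.088) and Foxe3 (-0.082) with the Rax covariate; the cause was not tested. With that covariate 5 changes not called in either fit also changed sign. Over all settings other than those leaving out 1 library, 115 changes of single genes kept their side of the threshold, 19 lost their call and 10 gained one, and with 1 library left out 212, 9 and 7. With 2 pools per stage, E15 spread limits what can be called, and genes near 1 RPKM rest on few reads.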
